A study of Mus musculus with 12 samples.

Results

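Livers of mice whose hepatocytes had lost YAP were compared with livers that kept it, 2 days after a drug that drives hepatocytes into division. The comparison rests on 6 of the 12 arrays of the series, 3 of YAP knockout livers (KO) and 3 of wild-type livers (WT), chosen by their labels, and covers all 14102 genes measured. All mice were females of 8 to 12 weeks with floxed Yap1 alleles (YAP fl/fl). KO mice received the virus AAV8-TBG-Cre, and WT mice received AAV8-TBG-GFP. Both groups were given TCPOBOP by gavage in corn oil, at 3 mg/kg, 10 days after the virus. The TBG promoter is active in hepatocytes, so the other liver cells keep Yap1. KO and WT also differ in what the virus carried, Cre or GFP, and genotype and virus cannot be told apart. The remaining 6 arrays are 2 KO and 2 WT livers at day 0, which had the virus but no TCPOBOP, and 1 pool of each genotype at day 1. All groups were fitted together, so the day 0 arrays also enter the estimate of spread behind the SE and p-values of the comparison.

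YAP is a transcriptional co-activator that works with the TEAD factors and is held back by the LATS kinases of the Hippo pathway. It is known for its part in organ size and in liver growth, and Ccn1, Ccn2 and Ankrd1 are among its classical target genes. TCPOBOP activates the nuclear receptor CAR, the product of Nr1i3. CAR switches on genes of drug metabolism such as Cyp2b10 and is also a direct stimulus for hepatocytes to divide. The comparison addresses which liver transcripts differ when hepatocytes meet this stimulus without YAP.

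Signals are the authors' MAS5 intensities, with no unit other than brightness. The day 2 arrays of the groups did not share one signal range. The highest signal of an array was 48217 to 67457 in KO and 103216 to 116918 in WT, and the median signal was 259.9 to 277 in KO and 231.6 to 244.5 in WT. All 18 probe sets for hybridization controls, RNAs added in the laboratory, were lower on every KO array than on every WT array, by -0.77 to -2.06 on the log2 scale (median -1.29). Ratios of 3′ to 5′ probe sets, a measure of RNA quality, were 0.734 to 0.748 in KO and 0.763 to 0.83 in WT for Gapdh. For actin they were 1.553 to 1.8 in KO and 1.724 to 1.967 in WT. The part of these differences in the results was not tested. Each comparison was therefore made on log2 of the deposited signal plus 16 and again after quantile normalization, which gives all arrays 1 distribution. A gene is called here when its adjusted p is under 0.05 on both scalings in the same direction. Differences are KO minus WT on the log2 scale with the SE of the limma fit (n = 3 arrays each), and folds are given where every array of the lower group reads at least 64 units. The labels do not say that replicates are separate animals, so p-values measure the spread between these samples. KO 1 to KO 3 and WT 1 to WT 3 name the day 2 arrays by their replicate numbers.

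The targeted gene was lower in KO. Yap1, on chromosome 9, read 571.5, 539 and 797 units in KO livers, against 1239.9, 1059.6 and 1306 in WT livers, and the groups did not overlap. Its difference was -0.92 ± 0.17 (adjusted p 0.00844) on the deposited scaling and -0.96 ± 0.17 (adjusted p 0.0114) after quantile normalization, which is 1.89-fold and 1.95-fold lower. The remaining signal was measured in whole liver, where fewer cells of a type and less RNA per cell cannot be told apart. That limit applies to every gene below.

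KO livers differed from WT livers in 822 of 14102 genes (5.83%), with 347 higher (2.46%) and 475 lower (3.37%). On the deposited scaling alone 1300 genes passed (9.22%), 563 of them higher (3.99%) and 737 lower (5.23%). After quantile normalization alone 1040 genes passed (7.37%), 496 of them higher (3.52%) and 544 lower (3.86%). The genes that passed on only one scaling divided by brightness. The 259 called lower on the deposited scaling only had a median mean log2 signal of 12.10, whereas the 216 called higher only there had 9.09. The median difference of all genes was 0.090 on the deposited scaling and 0.048 after quantile normalization. Centring each array on its own median in place of the deposited scaling shifted the median by -0.173 and left 209 higher and 544 lower calls. The lower share of the calls was then 72.2%, against 57.8% in the comparison as described.

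Most called genes changed by less than 2-fold. The median difference was 0.829 and 0.817 for the genes called higher, on the deposited scaling and after quantile normalization, and -0.875 and -0.818 for those called lower. On both scalings 92 of the higher and 158 of the lower genes differed by over 2-fold. The 3 KO and 3 WT arrays did not overlap on either scaling for all 347 higher and 472 of the 475 lower genes. Over all genes tested, 2059 (14.6%) were higher and 1800 (12.8%) lower in KO without overlap. Otud6b and Atp5l passed narrowly, each with a larger adjusted p of 0.0498, and Cpq and Uqcc3 narrowly missed, each with 0.0501. Calls were sensitive to single arrays: 171 of the 822 genes kept their call in all 6 fits that leave out 1 day 2 array. Of these, 128 (25 higher, 103 lower) also kept it in each of 12 other settings that tested the gene. Dim genes were not tested in every setting, and the other adjusted p thresholds are not among the 12. Genes of these 128 are said below to hold in every fit. For other named genes, the arrays listed after "lost without" are those whose omission, 1 at a time, ended the call, and the range in brackets is the difference on the deposited scaling over the 6 such fits.

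**Figure D1:**
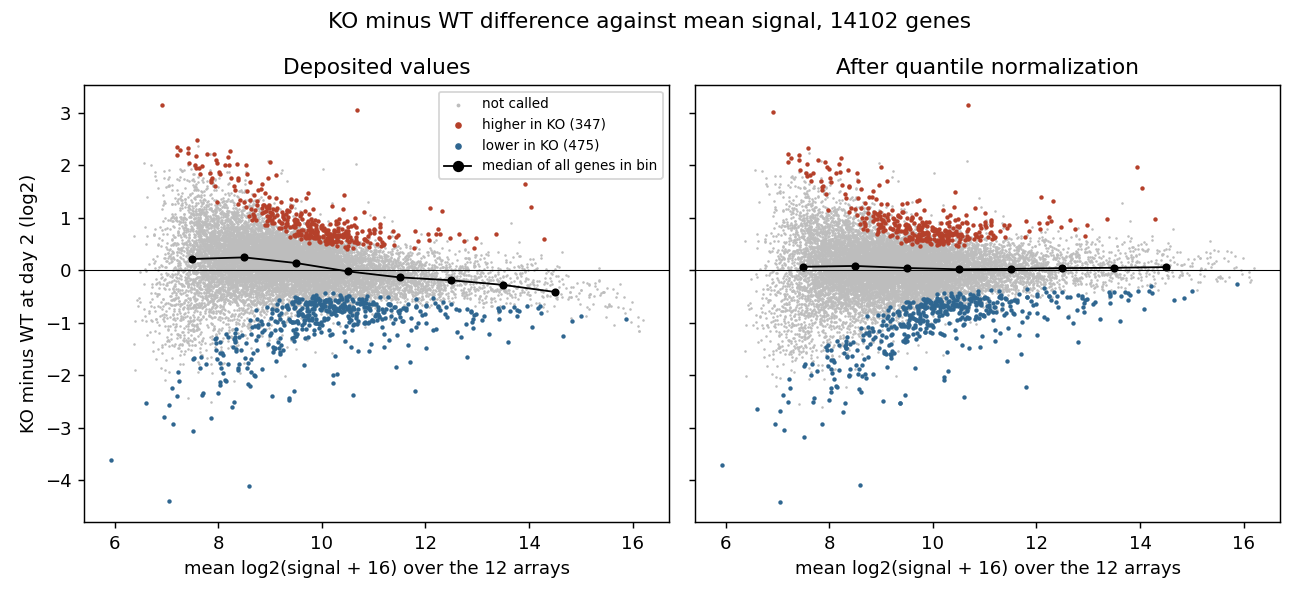
Each point is 1 of 14102 genes, with its mean log2 signal over the 12 arrays on the x axis and its KO minus WT difference at day 2 (log2) on the y axis, on the deposited scaling (left) and after quantile normalization (right). Red points are the 347 genes called higher and blue points the 475 called lower in KO. The black line, the median of all genes in bins of 1 log2 unit, runs from 0.214 in the dimmest bin to -0.414 in the brightest on the left and stays between 0.018 and 0.081 on the right.

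Genes of G2 and mitosis were lower in KO as a group. Of 63 measured members of the G2/M list, 23 were called lower (36.5%) and 0 higher by limma, against 3.37% and 2.46% of all genes. At an unadjusted limma p under 0.05 on both scalings, 33 were lower and 4 higher. Over all 14102 genes, 1387 were lower and 1480 higher by that rule, which is the reference for every such count below. The median difference of the 63 genes was -0.69 on the deposited scaling and -0.76 after quantile normalization, against 0.090 and 0.048 for all genes. Of the 23, 13 kept the call without any 1 array and 12 held in every fit. The lists were drawn up with earlier results of these data known, so the counts describe the members and are no independent evidence of their direction.

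The promoters of this group are shown because short elements described for mitotic genes recur in them. The cell cycle genes homology region (CHR, TTTGAA) is a site of the MuvB complexes, and the CCAAT box is the site of NF-Y. Both were searched on both strands in RefSeq windows of 300 bases around the annotated start (GRCm38.p6). The 3 windows below are Ccnb2 (chr9:70421505-70421804, minus strand), Cdc20 (chr4:118437294-118437593, minus strand) and Cdk1 (chr10:69352863-69353162, minus strand), each written 5′ to 3′ along the gene, with CHR and CCAAT matches on either strand in capitals.
Ccnb2: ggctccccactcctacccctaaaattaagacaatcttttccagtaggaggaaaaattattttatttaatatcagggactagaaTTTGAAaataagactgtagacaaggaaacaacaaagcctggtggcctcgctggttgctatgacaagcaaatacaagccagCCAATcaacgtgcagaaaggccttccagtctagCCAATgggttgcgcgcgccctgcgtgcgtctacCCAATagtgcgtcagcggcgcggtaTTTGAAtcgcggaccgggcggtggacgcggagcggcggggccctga
Cdc20: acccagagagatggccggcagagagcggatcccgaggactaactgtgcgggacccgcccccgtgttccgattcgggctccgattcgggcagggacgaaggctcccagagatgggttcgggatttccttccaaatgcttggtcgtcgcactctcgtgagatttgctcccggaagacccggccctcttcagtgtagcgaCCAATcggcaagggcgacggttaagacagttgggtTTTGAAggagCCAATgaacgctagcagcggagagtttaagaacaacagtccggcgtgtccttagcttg
Cdk1: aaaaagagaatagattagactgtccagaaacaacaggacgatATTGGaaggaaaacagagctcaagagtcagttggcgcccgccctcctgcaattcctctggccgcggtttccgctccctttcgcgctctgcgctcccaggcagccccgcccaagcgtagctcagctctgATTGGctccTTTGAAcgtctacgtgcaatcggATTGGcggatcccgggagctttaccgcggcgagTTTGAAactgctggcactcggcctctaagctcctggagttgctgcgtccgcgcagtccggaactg
A window was found for 21 of the 23 called genes, and 18 of these (85.7%) hold a CHR match and 19 (90.5%) a CCAAT match. Among the G2/M genes that were not called, 21 of 32 windows (65.6%) hold a CHR match and 20 (62.5%) a CCAAT match. Over all genes tested, 12.8% of 11293 windows hold a CHR match and 37.8% a CCAAT match. Matches were thus frequent among the called and the uncalled members of the list, and a match is no evidence of binding. The letters GGAATG, a core of TEAD sites, occur in 12.8% of the 392 windows of genes called lower and in 12.6% of all windows.

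Regulators of mitotic entry and exit were among the genes called lower. Cdc20, which activates the ubiquitin ligase that ends mitosis, read 1103, 742 and 1013 units in KO livers, against 5602, 3331 and 4015 in WT livers. Mad2l1, the spindle checkpoint protein that restrains CDC20, read 446, 499 and 410.0 units in KO livers, against 2149, 1588 and 1908 in WT livers. Ccnb2, a B-type cyclin, read 879.8, 431 and 676 units in KO livers, against 2785, 2436 and 2510.0 in WT livers. For all 3 genes every KO array lay far below every WT array. Cdc20 was 4.43-fold lower (-2.15 ± 0.23, adjusted p 0.00102), Mad2l1 4.04-fold lower (-2.02 ± 0.30, adjusted p 0.00442) and Ccnb2 3.97-fold lower (-1.99 ± 0.26, adjusted p 0.00233). After quantile normalization the folds were 4.25, 4.14 and 3.95, with adjusted p 0.00216, 0.00888 and 0.00507. Cdk1, the kinase that B-type cyclins activate, read 1004, 562 and 773 units in KO livers, against 2581, 2118.5 and 2088 in WT livers. It was 2.93-fold lower (-1.55 ± 0.24, adjusted p 0.00454, and -1.53 ± 0.25, adjusted p 0.00909, after quantile normalization). Ccnf, a cyclin that is a ubiquitin ligase subunit, read 49.6, 60.8 and 92.6 units in KO livers, near the dim end of the arrays, against 421, 420.2 and 390.5 in WT livers. Its differences were -2.38 and -2.51 on the deposited scaling and after quantile normalization, with adjusted p 0.00566 and 0.00727.

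Genes for chromosome structure and the spindle were also lower. Top2a, the topoisomerase that untangles sister chromatids, read 520.2, 471 and 677 units in KO livers, against 1605, 1648 and 1793 in WT livers. Smc4, a core subunit of condensin, read 649, 588 and 589 units in KO livers, against 1565, 1354 and 1592.5 in WT livers. The 2 genes were 3.00-fold and 2.43-fold lower (-1.58 ± 0.19 and -1.28 ± 0.16, both adjusted p 0.00181) without overlap between the groups. Racgap1, which organises the central spindle, read 335, 380.1 and 466.5 units in KO livers, against 1478, 1324 and 742 in WT livers. Aurka, a mitotic kinase of the spindle poles, read 617, 689 and 620.1 units in KO livers, against 1415, 1437 and 1079 in WT livers. KO arrays were again the lower ones throughout, 2.83-fold for Racgap1 (-1.50 ± 0.30, adjusted p 0.0122) and 2.00-fold for Aurka (-1.001 ± 0.159, adjusted p 0.00533). Ube2c, the ubiquitin-conjugating partner of the mitotic ligase, Cdca8, a subunit of the chromosomal passenger complex, and the kinase Pbk differed by -1.20 ± 0.20, -1.04 ± 0.17 and -0.96 ± 0.16. The 12 G2/M genes described so far, from Cdc20 to Pbk, are the 12 that held in every fit.

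Hmmr, a spindle-binding protein, differed by -1.34 ± 0.22 (adjusted p 0.00615) and was kept without any 1 array, but was lost when the probe sets of a gene were averaged. The calls of the remaining 10 members were each lost without at least 1 array. Mki67, the proliferation antigen, read 433, 336 and 392 units in KO livers, against 701, 1039.6 and 1062 in WT livers, a difference of -1.22 ± 0.34 (adjusted p 0.0458). Its call was lost without any 1 of the 6 arrays (-1.41 to -1.12). Birc5, the inhibitor of apoptosis survivin and a passenger complex subunit, read 443, 72.3 and 535 units in KO livers, against 1649, 1438 and 1687 in WT livers. KO 2 was far below the other KO arrays, and the call (-2.51 ± 0.56, adjusted p 0.0195) was lost without WT 1, WT 2 or WT 3 (-2.99 to -1.67). The call of Kif22, a chromosome-arm kinesin (-1.93 ± 0.40, adjusted p 0.0142), was lost without KO 2 or WT 3 (-2.03 to -1.76). Not every proliferation gene differed: Ccna2, the S and G2 cyclin, differed by -0.59 ± 0.25 (adjusted p 0.144), Foxm1, a transcription factor for mitotic genes, by -0.42 ± 0.21 (adjusted p 0.219) and Aurkb, the catalytic subunit of the passenger complex, by -0.25 ± 0.19 (adjusted p 0.421).

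DNA replication genes were lower as well. Of 42 measured members 11 were called lower (26.2%) and 0 higher by limma, against 3.37% and 2.46% of all genes. At an unadjusted limma p under 0.05, 19 were lower and 1 higher. The median difference of the list was -0.54 on the deposited scaling and -0.59 after quantile normalization. Pcna, the sliding clamp of DNA polymerases, read 3125, 2626 and 2213 units in KO livers, against 6738, 6441 and 8018 in WT livers. Tk1, thymidine kinase, read 1102, 1105 and 887 units in KO livers, against 3111, 2615 and 4028 in WT livers. Rrm2, the subunit of ribonucleotide reductase that makes deoxynucleotides in S phase, read 2854, 1643 and 2007 units in KO livers, against 5799, 5076 and 5895 in WT livers. The groups did not overlap for any of the 3, and KO was 2.67-fold, 3.09-fold and 2.63-fold lower (-1.41 ± 0.17, -1.63 ± 0.19 and -1.40 ± 0.18, adjusted p 0.00166, 0.00169 and 0.00242). Rpa1, the single-strand DNA binding subunit, and Mcm7, a subunit of the replicative helicase, differed by -1.08 ± 0.15 and -0.998 ± 0.125 (adjusted p 0.00316 and 0.00187). These 5 genes held in every fit. The other helicase subunits gave no call: Mcm2 differed by -0.45 ± 0.23 (adjusted p 0.228) and Mcm6 by -1.95 ± 0.63 (adjusted p 0.0739). Gins1 and Gins2, subunits of the helicase activator, differed by -1.95 ± 0.44 and -1.86 ± 0.40. The call of Gins1 was lost without KO 2, KO 3, WT 1, WT 2 or WT 3 (-2.09 to -1.76) and that of Gins2 without KO 2 or WT 3 (-2.07 to -1.61).

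Chromatin genes of S phase included 4 called lower of 23 measured (17.4%, against 3.37% of all genes) and 0 higher, with a list median of -0.15 and -0.32. Slbp, which binds replication-dependent histone messages, H2ax, a histone variant, and Tmpo, a nuclear lamina protein, differed by -0.84 ± 0.15, -0.90 ± 0.12 and -0.80 ± 0.11 and held in every fit. H1f2, the linker histone H1.2, stands in no list and read 2725, 1901 and 2078 units in KO livers, against 8753.5, 6759 and 7104 in WT livers. It was 3.38-fold lower (-1.75 ± 0.22, adjusted p 0.00187), also without overlap and in every fit.

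**Figure D2:**
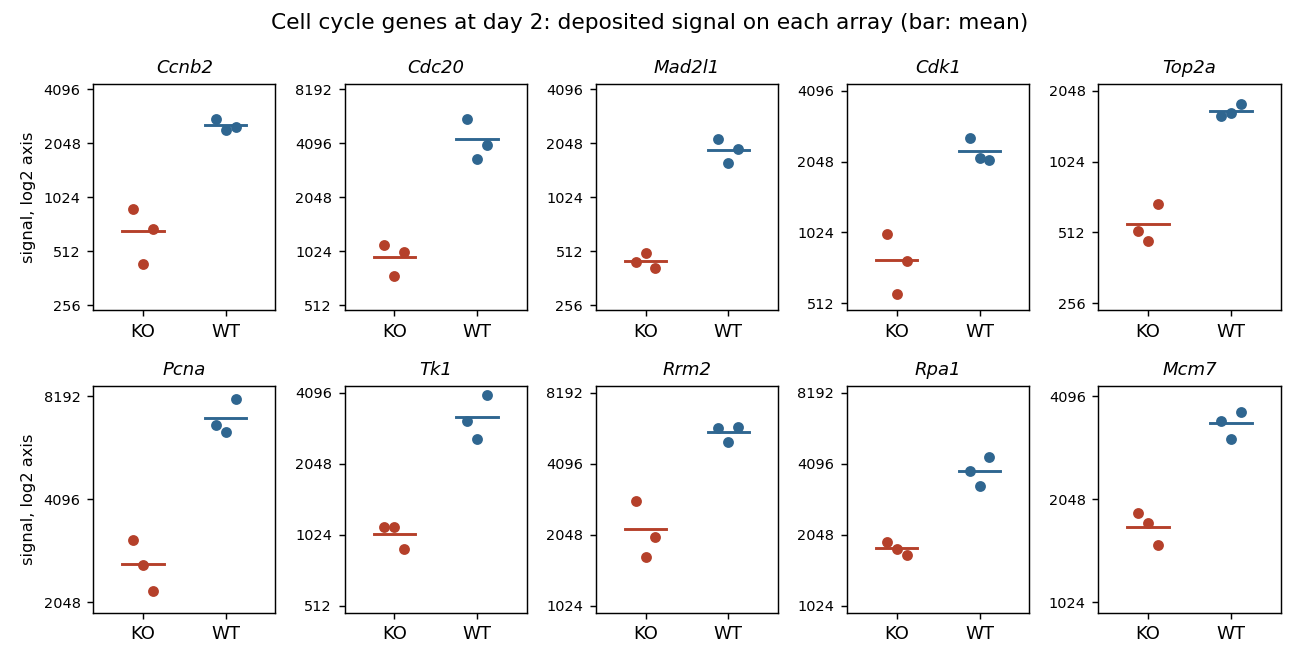
Deposited signal (log2 axis) of 10 cell cycle genes on the 3 KO (red) and 3 WT (blue) day 2 arrays, with a bar at each group's mean. In all 10 panels every KO point lies below every WT point.

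Of 25 measured G1/S regulators 2 were called lower (8.0%, against 3.37% of all genes) and 0 higher (5 and 1 at an unadjusted p under 0.05). The list median was -0.21 on the deposited scaling and -0.35 after quantile normalization. Mycn, a relative of Myc, differed by -1.51 ± 0.40 (adjusted p 0.0359), a call lost without KO 1, KO 2, KO 3, WT 1 or WT 3 (-1.97 to -1.15). Ccnd3, a D-type cyclin, differed by -0.52 ± 0.12 (adjusted p 0.0209), a call lost without any 1 array (-0.56 to -0.46). Ccnd1, the cyclin D that is induced in growing liver, read 6642, 7482 and 9039.5 units in KO livers, against 8079.7, 8747 and 9040.0 in WT livers. These groups overlapped, and the difference was -0.17 ± 0.15 (adjusted p 0.476) on the deposited scaling and 0.09 ± 0.12 after quantile normalization. Myc itself differed by 0.03 ± 0.36 (adjusted p 0.967), Ccne1, a cyclin of S phase entry, by -0.21 ± 0.24 (adjusted p 0.595) and E2f1, a transcription factor for S phase genes, by -1.29 ± 0.70 (adjusted p 0.244). Cdkn1a, which codes for the CDK inhibitor p21, differed by 0.03 ± 0.19 (adjusted p 0.944), and 0 of 16 measured p53 target genes were called by limma (2 lower and 0 higher at an unadjusted p under 0.05). Among 12 measured CDK inhibitors and antiproliferative genes 2 were called lower (16.7%, against 3.37% of all genes) and 0 higher. Cdkn2c, which inhibits CDK4 and CDK6, differed by -0.86 ± 0.16, a call lost without KO 2, KO 3, WT 1 or WT 3 (-0.98 to -0.74), and Btg1, an antiproliferative factor, by -0.80 ± 0.14, lost without WT 2 or WT 3 (-0.93 to -0.63).

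The classical targets of YAP were mostly not lower in KO liver. Of 26 measured YAP/TAZ target genes 2 were called lower (7.7%) and 0 higher by limma, against 3.37% and 2.46% of all genes. At an unadjusted limma p under 0.05 on both scalings, 5 were lower and 1 higher, against 1387 and 1480 of all 14102 genes. The list median was 0.18 and 0.13, above that of all genes. Tgm2, a transglutaminase that crosslinks proteins, read 5531, 3785 and 4792 units in KO livers, against 9447, 11804 and 9769.8 in WT livers. Every KO array was below every WT array, 2.21-fold (-1.14 ± 0.14, adjusted p 0.00192, and -0.89 ± 0.14, adjusted p 0.00907, after quantile normalization), and the call held in every fit. The other called target, Birc5, is also on the G2/M list. Ccn1 read 505, 387 and 316 units in KO livers, against 432, 683.5 and 426 in WT livers, and Ccn2 read 340.1, 260.5 and 202 units in KO livers, against 154, 146 and 267.5 in WT livers. KO and WT overlapped for both genes, with differences of -0.33 ± 0.30 (adjusted p 0.486) and 0.49 ± 0.33 (adjusted p 0.354). Ankrd1 differed by 0.17 ± 0.55, Amotl2 by -0.55 ± 0.21 and Axl by -0.60 ± 0.23, with adjusted p 0.866, 0.117 and 0.122. Among 17 measured Hippo pathway components 1, Yap1, was called by limma (5.9%, near the 5.83% of all genes). At an unadjusted limma p under 0.05, 3 were lower and 0 higher. Wwtr1, which codes for the YAP relative TAZ, differed by -0.11 ± 0.24, Lats2, a kinase that inhibits YAP, by -0.92 ± 0.44 and Tead1, a DNA-binding partner, by 0.22 ± 0.16 (adjusted p 0.796, 0.194 and 0.395). Liver cells outside the reach of the TBG promoter express several of these genes, and their part was not tested.

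Cytoskeletal genes had the highest share of calls among the lists with at least 10 measured members. Of 34 actin cytoskeleton and tubulin genes 14 were called lower (41.2%) and 0 higher by limma, against 3.37% and 2.46% of all genes. At an unadjusted limma p under 0.05, 17 were lower and 0 higher. The list median was -0.59 on the deposited scaling and -0.53 after quantile normalization. Tubb6, a beta-tubulin, read 40.6, 33.9 and 38.4 units in KO livers, against 1162, 974 and 1182 in WT livers. KO values lay at the floor of the arrays, so no fold is given. The difference was -4.38 ± 0.48 (adjusted p 0.00112) and -4.42 ± 0.48 after quantile normalization (adjusted p 0.00216). Myh9, the heavy chain of non-muscle myosin IIA, read 1288, 909.9 and 1078 units in KO livers, against 3131, 3042 and 3392 in WT livers. Actg1, cytoplasmic gamma-actin, read 4802, 4155 and 4459.8 units in KO livers, against 12554, 9907 and 10146 in WT livers. Krt8, the keratin of hepatocyte intermediate filaments, read 6108, 5207 and 5328 units in KO livers, against 10879, 14781 and 12269 in WT livers. No KO array of these genes reached the lowest WT array. Myh9 was 2.92-fold lower (-1.54 ± 0.16, adjusted p 0.000969), Actg1 2.42-fold (-1.27 ± 0.16, adjusted p 0.00187) and Krt8 2.26-fold (-1.18 ± 0.13, adjusted p 0.00112). After quantile normalization the folds were 2.77, 2.02 and 1.86 (adjusted p 0.00267, 0.00709 and 0.00715).

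S100a10 and Anxa5 belong to the calcium-dependent membrane proteins at the actin cortex. S100a10 read 4421.5, 3652 and 3089.5 units in KO livers, against 9939, 10752 and 10295 in WT livers, and Anxa5 read 1257, 1044 and 831 units in KO livers, against 2375, 3323 and 3477 in WT livers. Both were lower on all KO arrays, 2.8-fold (-1.48 ± 0.15, adjusted p 0.000799) and 2.9-fold (-1.54 ± 0.24, adjusted p 0.00469). Tubb6, Myh9, Actg1, Krt8, S100a10 and Anxa5 held in every fit. Actb, beta-actin, read 8199.9, 7635 and 5292 units in KO livers, against 14492, 17136 and 16919.9 in WT livers, a difference of -1.22 ± 0.20 (adjusted p 0.00646), and its call was lost without WT 2 or WT 3 (-1.34 to -1.03). Vim, the mesenchymal intermediate filament vimentin, differed by -1.28 ± 0.33, a call lost without KO 2, KO 3, WT 1, WT 2 or WT 3 (-1.51 to -0.98). Pfn1, Tpm1, Tpm2, Stmn1, Krt18 and Tubb4b, which code for an actin-binding profilin, tropomyosins, stathmin, a keratin and a beta-tubulin, were also called lower (-1.10 to -0.67), each call lost without 1 or more arrays, and Tubb4b turned higher when its probe sets were averaged. Among the members with no call, Cfl1, the actin-severing cofilin, differed by 0.01 ± 0.19 and 0.19, Flna, filamin A, by 0.36 ± 0.24 and 0.22 and Tubb5, a major beta-tubulin, by -0.45 ± 0.15 and -0.23, on the deposited scaling and after quantile normalization.

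Among all genes called, Tnfrsf12a had the largest fold that could be given. It codes for the receptor of the cytokine TWEAK and read 148, 146 and 156 units in KO livers, against 2606, 3679.6 and 2385.5 in WT livers. The KO arrays lay close together and far below the WT arrays. Tnfrsf12a was 17.2-fold lower (-4.11 ± 0.26, adjusted p 1.88e-05) and 17.1-fold lower after quantile normalization (adjusted p 5.57e-05), and held in every fit. It was the 1 gene called among 25 measured mitogens and receptors (4.0%, against 5.83% of all genes). Eif2b1, a subunit of the exchange factor for the initiation factor eIF2, read 321, 112 and 142 units in KO livers, against 1166, 970.3 and 918 in WT livers and was 5.43-fold lower (-2.44 ± 0.30, adjusted p 0.00187). Nfic, a transcription factor of the NFI family, read 159.9, 146 and 168.5 units in KO livers, against 569, 1080.2 and 1178 in WT livers and was 5.26-fold lower (-2.39 ± 0.27, adjusted p 0.00133). In both cases the highest KO array was below the lowest WT array. Bend3, a transcriptional repressor, and Denn2b, a guanine nucleotide exchange factor, were near the floor in KO and differed by -3.06 ± 0.56 and -2.59 ± 0.38 (adjusted p 0.00851 and 0.00406). H2-Q5, a class I gene of the histocompatibility complex with close relatives that the probes may also read, was 4.94-fold lower (-2.31 ± 0.27, adjusted p 0.00169). Cip2a, an inhibitor of the phosphatase PP2A, had the largest difference after Tubb6 and Tnfrsf12a (-3.60 ± 0.85, adjusted p 0.0248), but its call was lost without any 1 array (-3.75 to -3.47).

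Of further genes called lower, Lsr, a lipoprotein receptor of liver, read 1652, 1512 and 2097 units in KO livers, against 3466, 4949.8 and 4025 in WT livers, and Cd9, a tetraspanin, read 590.1, 779 and 825 units in KO livers, against 1871, 2179 and 1431 in WT livers. The groups stood apart for both, with KO 2.35-fold (-1.23 ± 0.16, adjusted p 0.00242) and 2.46-fold lower (-1.29 ± 0.21, adjusted p 0.00548). Ccl9, a chemokine of high signal, read 15434.5, 14539 and 15982 units in KO livers, against 39897, 35990.0 and 42071.5 in WT livers. Its difference was -1.36 ± 0.13 (adjusted p 0.000799) on the deposited scaling and -0.96 ± 0.11 (adjusted p 0.00271) after quantile normalization. A1cf, the cofactor that edits apolipoprotein B messages, differed by -1.35 ± 0.20 (adjusted p 0.00418). These 4 genes held in every fit.

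Metallothioneins, small zinc-binding proteins of liver, were lower in KO. Mt1 read 2538, 1361.5 and 612 units in KO livers, against 6622, 7683 and 5157 in WT livers, and Mt2 read 1560.5, 1682 and 1105 units in KO livers, against 5155.5, 5618 and 4675 in WT livers. The groups were separate for both, although KO 3 had the lowest value of each. Mt2 was 3.57-fold lower (-1.84 ± 0.25, adjusted p 0.00272) and held in every fit. Mt1 was 4.93-fold lower (-2.30 ± 0.40, adjusted p 0.00803), and its call was lost without KO 2 or WT 2 (-2.79 to -1.77). Both belong to a list of 8 measured metallothionein and zinc genes, of which 2 were called lower and 0 higher. The probes of the family may read more than 1 member.

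The heat shock genes Hspa1b and Hspa1a were higher in KO. They code for near-identical inducible HSP70 chaperones, so a probe may read both. Hspa1b read 4187, 6519 and 6112 units in KO livers, against 525, 534 and 981 in WT livers, and Hspa1a read 378, 459 and 453 units in KO livers, against 26, 23.2 and 60.6 in WT livers. KO arrays were higher throughout. Hspa1b was 8.28-fold higher (3.05 ± 0.27, adjusted p 0.000459) and 8.81-fold after quantile normalization (adjusted p 0.000443), in every fit. Hspa1a differed by 3.15 ± 0.58 (adjusted p 0.00894), a call lost without KO 2 or KO 3 (2.97 to 3.45). The day 1 pools did not show this difference. There Hspa1b read 5448 units in KO and 4846 in WT, and Hspa1a 145 in KO and 288 in WT, with 1 pool a group. The WT pool was thus within the range of the KO day 2 arrays for Hspa1b. Hspa4l, an HSP110-type chaperone, was called lower (-0.61 ± 0.17, adjusted p 0.0458), lost without KO 1, KO 2, KO 3, WT 1 or WT 2 (-0.81 to -0.48). Others of the list gave no call on both scalings. Hsph1, an HSP110 chaperone, differed by 0.89 ± 0.25 (adjusted p 0.0434) and 0.79 ± 0.25 (adjusted p 0.0805), Dnajb1, an HSP40 partner, by 0.20 ± 0.19 (adjusted p 0.519) and Hsp90aa1, an HSP90, by -0.11 ± 0.14 (adjusted p 0.646). Of 14 measured heat shock genes 2 were called higher and 1 lower (21.4% together, against 5.83% of all genes).

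The start regions of a metallothionein and of an HSP70 gene are shown because each holds the element its family is known for. The metal response element (MRE) was searched as TGCACNC or TGCGCNC, and the heat shock element (HSE) as GAANNTTC, on both strands. The windows are Mt1 (chr8:94178839-94179138, plus strand) with 3 MRE matches in capitals and Hspa1b (chr17:34959189-34959488, minus strand) with 1 HSE match in capitals.
Mt1: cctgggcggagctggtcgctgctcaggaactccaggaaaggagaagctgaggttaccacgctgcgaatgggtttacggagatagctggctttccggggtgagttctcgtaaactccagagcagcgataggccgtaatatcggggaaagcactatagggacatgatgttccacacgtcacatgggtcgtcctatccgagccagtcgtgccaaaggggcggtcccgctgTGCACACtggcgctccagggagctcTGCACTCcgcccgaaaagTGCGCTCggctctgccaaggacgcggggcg
Hspa1b: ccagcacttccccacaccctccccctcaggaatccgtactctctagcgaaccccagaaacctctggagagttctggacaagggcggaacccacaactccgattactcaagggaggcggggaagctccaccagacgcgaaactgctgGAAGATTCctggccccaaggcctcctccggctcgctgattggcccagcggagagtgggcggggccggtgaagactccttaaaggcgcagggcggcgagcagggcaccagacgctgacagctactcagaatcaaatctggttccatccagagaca
MRE matches occur in 34.1% of all windows and in those of Mt1 and Mt2. HSE matches occur in 6.2% of all windows and in those of Hspa1a and Hspa1b. The matches describe the sequence only.

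Other stress genes split in direction. Of 28 measured endoplasmic reticulum stress genes 3 were called higher and 1 lower (14.3% together, against 5.83% of all genes). Chac1, a glutathione-degrading enzyme induced by the stress factor ATF4, read 831.5, 681 and 775 units in KO livers, against 301, 299.6 and 303 in WT livers. The WT arrays were nearly equal and all KO arrays higher, 2.44-fold (1.29 ± 0.16, adjusted p 0.00187), in every fit. Herpud1 and Dnajb9, which act in the clearance and folding of proteins of this organelle, differed by 0.70 ± 0.16 and 0.55 ± 0.14 (adjusted p 0.0208 and 0.0334). Herpud1 lost its call without KO 2, KO 3, WT 1 or WT 2 (0.57 to 0.80) and Dnajb9 without KO 2, KO 3, WT 2 or WT 3 (0.43 to 0.70). Atf3, a stress-induced transcription factor, read 84.1, 68.2 and 40.3 units in KO livers, against 621, 182 and 464 in WT livers, a difference of -2.33 ± 0.56 (adjusted p 0.0273) lost without KO 1, KO 2, KO 3, WT 1 or WT 3 (-2.83 to -1.98). Among 23 measured immediate early genes 3 were called lower and 1 higher (17.4% together). Ier2, an early response gene, read 434, 466 and 515 units in KO livers, against 1210.5, 1206 and 785 in WT livers, a difference of -1.13 ± 0.21 (adjusted p 0.00863) that held in every fit. Gadd45g differed by -2.40 ± 0.52 (adjusted p 0.017), lost without KO 3, WT 2 or WT 3 (-2.72 to -2.23), whereas its relative Gadd45b, a CAR-responsive gene of the panel, differed by 0.19 ± 0.27 (adjusted p 0.668) with overlapping groups.

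**Figure D3:**
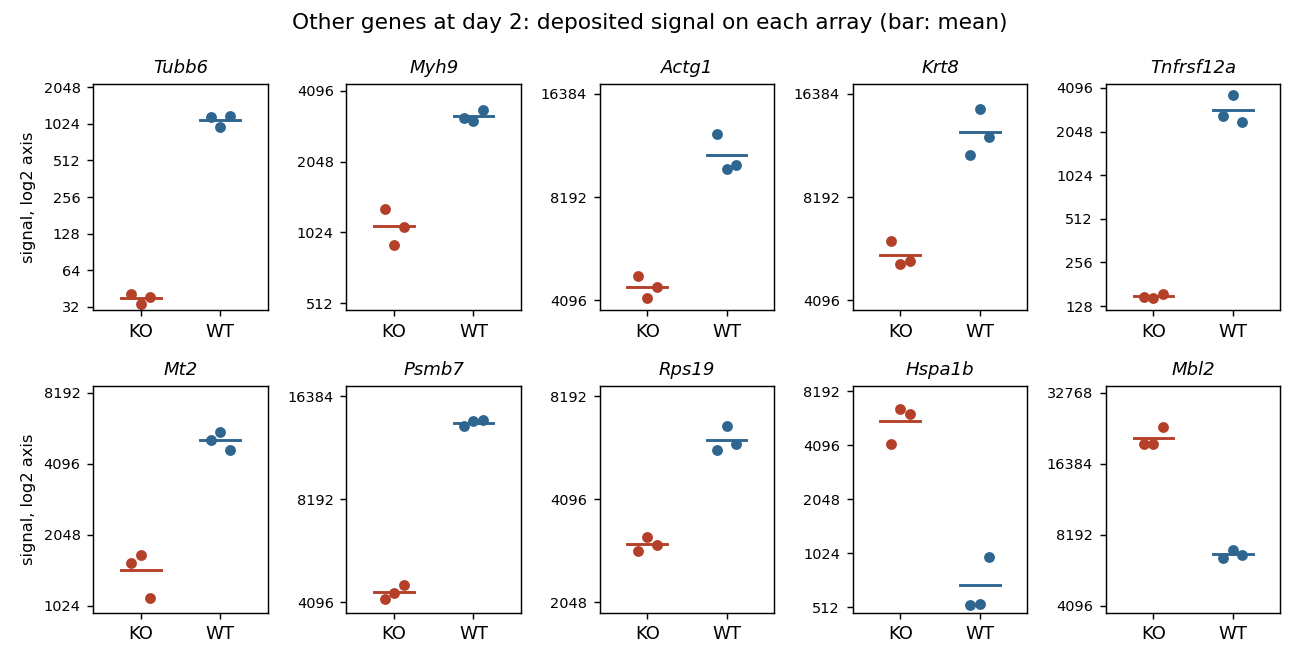
Deposited signal (log2 axis) of 10 further genes on the 3 KO (red) and 3 WT (blue) day 2 arrays, with a bar at each group's mean. KO lies below WT in the panels from Tubb6 to Rps19 and above it for Hspa1b and Mbl2, without overlap in any panel.

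Among CAR target and phase I genes of drug metabolism, several calls depended on the scaling. Cyp2b10 read 36931, 36514 and 40975 units in KO livers, against 51319, 47982 and 54064 in WT livers. On the deposited scaling it was lower in KO (-0.42 ± 0.10, adjusted p 0.0263), and after quantile normalization it differed by 0.10 ± 0.09 (adjusted p 0.478). Cyp3a11, the main drug-oxidising P450 of the Cyp3a family, was also lower on the deposited scaling (-0.82 ± 0.12, adjusted p 0.00418) and differed by 0.07 ± 0.07 (adjusted p 0.599) after quantile normalization. Both signals lie at the top of the range, where the arrays of the groups differ. Cyp2c55 differed by -0.34 ± 0.15 (adjusted p 0.177), and Nr1i3, the gene for CAR, by -0.05 ± 0.14 (adjusted p 0.837). Of 28 measured CAR target and phase I genes 3 were called higher and 1 lower on both scalings (14.3%, against 5.83% of all genes), and the list median was -0.30 on the deposited scaling and 0.21 after quantile normalization. Ces2e, a carboxylesterase, read 2601, 1886 and 1811 units in KO livers, against 986, 923 and 1198.5 in WT livers and was 2.00-fold higher (1.00 ± 0.17, adjusted p 0.00646) in every fit. Cyp2c38 and Cyp2b9 were called higher (0.88 ± 0.20 and 0.60 ± 0.15) and Cyp3a44 lower (-1.27 ± 0.27). Their calls were lost without KO 2, KO 3, WT 2 or WT 3 (0.74 to 1.05), any 1 array (0.47 to 0.68) and KO 2, KO 3, WT 1 or WT 3 (-1.55 to -0.97), in that order. The 3 genes called higher were not induced in WT livers here. From day 0 to day 2 WT changed by -0.56 for Ces2e, -2.07 for Cyp2c38 and -0.67 for Cyp2b9 on the deposited scaling, and by 2.37 for Cyp3a44. Probes of P450 subfamilies may read more than 1 gene.

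Among 34 measured phase II and transporter genes 1 was called higher and 1 lower (5.9% together, near the 5.83% of all genes). Slco1a1, an organic anion uptake transporter, read 1058, 1172 and 1167 units in KO livers, against 402, 431 and 619 in WT livers. All KO arrays exceeded all WT arrays, 2.33-fold (1.22 ± 0.19, adjusted p 0.0045), and the call was kept without any 1 array. Gstm3, a glutathione transferase, read 29239.5, 33187 and 43669 units in KO livers, against 78755, 78048 and 94898 in WT livers. It was lower in KO on both scalings, 2.4-fold (-1.26 ± 0.16, adjusted p 0.00187) and 1.49-fold (-0.57 ± 0.10, adjusted p 0.0125), with the call lost without WT 3 (-1.42 to -1.13). Exactly 3 genes were called in opposite directions by the scalings, all of high abundance: Cyp2c29, a P450 (-0.42 and 0.38), Mgst1, a microsomal glutathione transferase (-0.51 and 0.28), and Ttr, transthyretin (-0.61 and 0.23), on the deposited scaling and after quantile normalization. No direction is given for them.

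The genes that define hepatocytes followed the scaling in the same way. Of 28 measured plasma protein and hepatocyte identity genes, 13 were called lower on the deposited scaling and 0 after quantile normalization, where 1 was called higher, so that 0 were called on both (3 lower and 0 higher at an unadjusted p under 0.05). The list median was -0.42 and 0.01. Alb, serum albumin, differed by -1.15 ± 0.13 (adjusted p 0.00134) and -0.23 ± 0.06 (adjusted p 0.0576), and Apoa1, an apolipoprotein, by -1.05 and -0.13. Hnf4a, the transcription factor of hepatocyte identity, is of middling brightness and differed by -0.21 ± 0.12 and 0.11 ± 0.09. In 20 measured cholesterol synthesis genes, 28 fatty acid oxidation genes and 18 pericentral genes, 0 were called on both scalings by limma. At an unadjusted p under 0.05 on both scalings, 2 cholesterol synthesis genes were higher and 1 lower, 3 fatty acid oxidation genes were higher and 4 lower, and 0 pericentral genes passed.

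Individual metabolic genes were called on both scalings. Mbl2, the mannose-binding lectin that the liver secretes, had the smallest adjusted p of the higher genes. It read 19832, 19953 and 23536 units in KO livers, against 6542, 7039.5 and 6688 in WT livers. KO was 3.11-fold higher (1.64 ± 0.11, adjusted p 1.88e-05) and 3.89-fold higher after quantile normalization (adjusted p 5.25e-06), against the direction of other bright genes on the deposited scaling. Rdh9, a retinol dehydrogenase, read 676, 1255 and 867 units in KO livers, against 302.5, 258 and 411 in WT livers. It was 2.75-fold higher (1.46 ± 0.23, adjusted p 0.00471) and the 1 call among 15 retinoid genes (6.7%, against 5.83% of all genes). Ugt2a3, a glucuronosyltransferase, read 4287, 4028 and 3414 units in KO livers, against 2181, 2289 and 2479 in WT livers and was 1.68-fold higher (0.75 ± 0.12, adjusted p 0.00597). KO arrays lay above WT arrays for all 3 genes, and all 3 held in every fit. Hsd17b13, a lipid droplet enzyme, was 1.91-fold lower (-0.93 ± 0.12, adjusted p 0.00204), kept without any 1 array. Selenbp1, a selenium-binding protein, was 1.99-fold lower (-0.99 ± 0.14, adjusted p 0.00324) in every fit. Pck1, the enzyme that commits carbon to glucose production, differed by 1.12 ± 0.31 (adjusted p 0.0429), lost without KO 2, KO 3, WT 1, WT 2 or WT 3 (0.94 to 1.39). Pnpla3, a lipid droplet protein, differed by 0.91 ± 0.20 (adjusted p 0.0207), lost without KO 1, KO 3, WT 1 or WT 2 (0.72 to 1.06). Ldha, lactate dehydrogenase A, differed by -0.88 ± 0.21 (adjusted p 0.0272), lost without KO 1, KO 2, KO 3, WT 2 or WT 3 (-1.01 to -0.79).

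In the families of protein synthesis and respiration counted here, the calls were all lower in KO. Families were counted by symbol after the values had been seen, and over all genes 3.37% were called lower and 2.46% higher. Of 44 measured cytosolic ribosomal protein genes 12 were called lower (27.3%) and 0 higher, with a family median of -0.52 on the deposited scaling and -0.28 after quantile normalization. Rps19, a small subunit protein, read 2902, 3183 and 3017 units in KO livers, against 5697.5, 6707 and 5947.5 in WT livers and was 2.01-fold lower (-1.01 ± 0.11, adjusted p 0.00102) and 1.77-fold lower after quantile normalization (adjusted p 0.00395). Rpl19, a large subunit protein, differed by -0.92 and -0.62 on the 2 scalings, and both held in every fit. Of 45 translation initiation factor genes 7 were called lower (15.6%) and 0 higher. Eif3c, a subunit of the eIF3 complex, read 1048, 1678.5 and 1586 units in KO livers, against 3454, 4076 and 4154 in WT livers and was 2.74-fold lower (-1.45 ± 0.17, adjusted p 0.00133), as was Eif3b by a smaller amount (-0.77 ± 0.12, adjusted p 0.00525), both in every fit. Among 29 ribosome biogenesis genes 3 were called lower and 0 higher, and Nhp2, a small nucleolar ribonucleoprotein subunit, was one of them (-1.02 ± 0.16, adjusted p 0.00454, kept without any 1 array). Of 98 respiratory chain and ATP synthase genes 7 were called lower (7.1%) and 0 higher, and Atp5e, an ATP synthase subunit, held in every fit (-0.82 ± 0.12, adjusted p 0.00324). The spiked controls and the 3′ to 5′ ratios that differ between the groups were given above, and their part in these bright families was not tested.

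Psmb7, a catalytic subunit of the proteasome, had the smallest adjusted p of the lower genes together with Tnfrsf12a. It read 4177, 4375 and 4610.3 units in KO livers, against 13428, 13824 and 13921.5 in WT livers. Replicates of each group lay close together, and KO was 3.12-fold lower (-1.64 ± 0.10, adjusted p 1.88e-05) and 2.57-fold lower after quantile normalization (adjusted p 5.57e-05), in every fit. The proteasome as a whole did not share this size: 2 of 31 measured subunit genes were called lower (6.5%, against 3.37% of all genes) and 0 higher. The list median was -0.28 and -0.05. The other called subunit, Psmb4, differed by -0.79 ± 0.13, a call lost without KO 1, KO 2, WT 1, WT 2 or WT 3 (-0.87 to -0.71).

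Further lists gave 1 or 2 calls in a direction, where over all genes 2.46% were called higher and 3.37% lower. Of 27 measured acute phase genes 2 were called lower (7.4%) and 0 higher. Lcn2, the siderophore-binding lipocalin, differed by -1.38 ± 0.28, lost without KO 2, KO 3, WT 2 or WT 3 (-1.52 to -1.22), and Saa3, a serum amyloid A protein, by -0.72 ± 0.19, lost without KO 1, KO 2, KO 3, WT 2 or WT 3 (-0.87 to -0.62). Of 18 circadian clock genes 2 were called lower and 1 higher (16.7% together). Cry2, a repressor of the clock, differed by -1.61 ± 0.35, lost without KO 2, KO 3 or WT 3 (-1.80 to -1.48), and Nr1d1, which codes for REV-ERB alpha, by -0.74 ± 0.19, lost without KO 2, KO 3, WT 1, WT 2 or WT 3 (-0.87 to -0.62). Hlf, a clock output factor, differed by 0.86 ± 0.21, lost without KO 1, KO 2, WT 1 or WT 2 (0.67 to 1.06). Among 17 NRF2 target genes Osgin1, a growth inhibitor induced by oxidative stress, was called lower (-1.32 ± 0.28), lost without any 1 array (-1.42 to -1.23). Among 18 bile acid genes Baat, which conjugates bile acids, was called lower (-0.76 ± 0.16), lost without KO 2, KO 3, WT 1, WT 2 or WT 3 (-0.88 to -0.59). Among 20 genes of the IGF and growth hormone axis Foxo1, the transcription factor that insulin restrains, was called higher (0.60 ± 0.16), lost without any 1 array (0.44 to 0.72). Glucose production and glycolysis genes (19 measured) were called as Pck1 higher and Ldha lower, lipogenesis genes (24) as Pnpla3 higher and Agpat2 lower, and periportal genes (19) as Pck1 higher and Hsd17b13 lower. Agpat2, an enzyme of triglyceride synthesis, differed by -0.92 ± 0.19, lost without KO 1, KO 2, KO 3, WT 1 or WT 3 (-1.06 to -0.74).

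Genes called higher in KO formed no large group among the lists. Brighter ones that held in every fit were Cdkl4, a CDK-like kinase, with 2662, 2811 and 2013.5 units in KO livers, against 923, 932 and 878 in WT livers, and Sbk1, a serine/threonine kinase, with 1399.8, 1241 and 1278 units in KO livers, against 621.5, 536 and 399 in WT livers. Zdhhc24, a palmitoyltransferase, read 1933, 2207 and 1904 units in KO livers, against 750.5, 903 and 1026.5 in WT livers. For each of the 3 the KO arrays stood above the WT arrays, by 2.68-fold (1.42 ± 0.14, adjusted p 0.000799), 2.51-fold (1.33 ± 0.18, adjusted p 0.00272) and 2.25-fold (1.17 ± 0.17, adjusted p 0.00406). Gfpt2, an enzyme of hexosamine synthesis, Ago1, an Argonaute protein, and Ehd3, a membrane trafficking protein, were 2.56-fold, 1.91-fold and 1.54-fold higher (1.35 ± 0.23, 0.94 ± 0.15 and 0.62 ± 0.11). Dnah5, a dynein heavy chain of cilia, read 477, 478 and 471 units in KO livers, against 96, 87.8 and 75.7 in WT livers and was 4.81-fold higher (2.27 ± 0.26, adjusted p 0.00133) in every fit. The WT day 2 arrays were the low ones for Dnah5. At day 0 it read 393 and 280.5 units in KO livers and 502 and 492 in WT livers. The day 1 pools read 312 in KO and 394 in WT. Oas1e, of the oligoadenylate synthetase family, read 524, 526 and 624 units in KO livers, against 112, 112 and 113.5 in WT livers. It was 4.45-fold higher (2.15 ± 0.38, adjusted p 0.00784). Of 21 measured interferon-stimulated genes 0 were called higher and 1 lower (4.8%, against 3.37% of all genes). Among 20 measured Hox genes 3 were called higher (15.0%, against 2.46% of all genes) and 0 lower, with a family median of 0.43 and 0.31. Hoxb2 read 1171, 1237 and 1222 units in KO livers, against 732, 738 and 659.7 in WT livers, a difference of 0.76 ± 0.12 (adjusted p 0.00566) that held in every fit.

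Some of the calls were of dim genes, although the share called was lower among dim genes than over all genes, 2.42% of those with a mean log2 signal under 8 against 5.83%. In 37 of the 347 higher genes all WT arrays, and in 56 of the 475 lower genes all KO arrays, read below the median of their own array. Genes with RIKEN or Gm symbols made up 41 of the higher and 5 of the lower calls. Among genes with a mean log2 signal over 14, 8 of the 10 calls were lower (80.0%), against 51.0% of the calls among genes under 8. Other probe sets of the same genes went in the called direction on both scalings for 147 of 217 probe sets of higher genes (67.7%) and 240 of 375 of lower genes (64%). Among 8344 such probe sets of genes not called, 45.7% were above and 43.6% below WT in KO on both scalings.

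**Figure D4:**
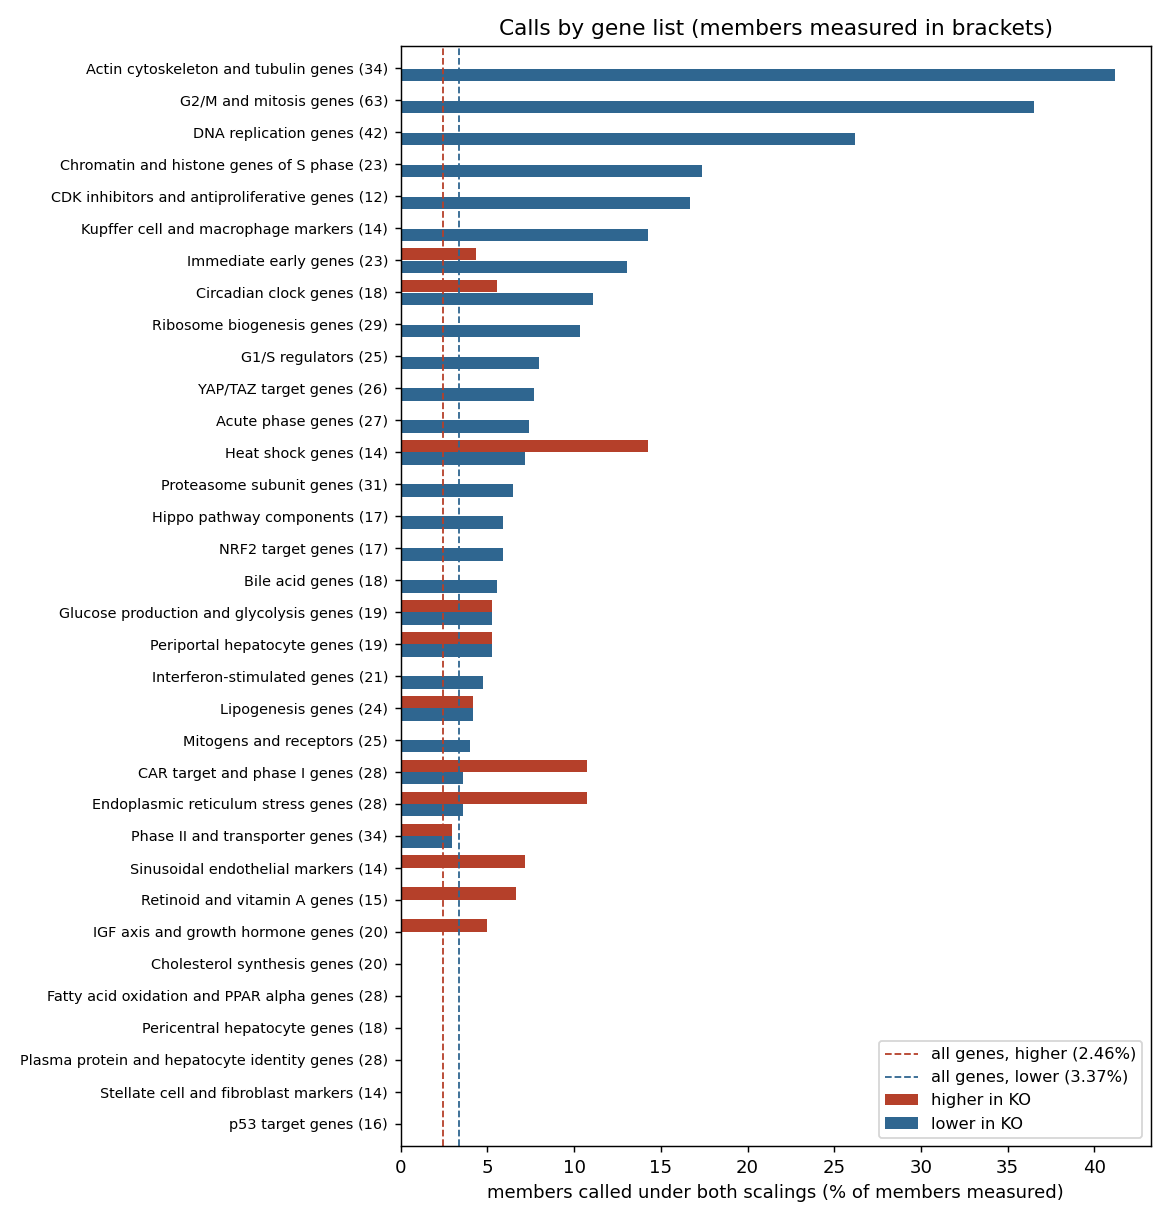
Share of each list's measured members (in brackets) called on both scalings, higher (red) and lower (blue) in KO, for lists with at least 10 measured members. Dashed lines mark the share of all genes, 2.46% higher and 3.37% lower. Cytoskeletal (41.2%), G2/M (36.5%) and DNA replication genes (26.2%) have the longest bars, all blue.

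Markers of other liver cells gave 4 calls among 67 measured genes, near the share of all genes (822 of 14102, 5.83%). All 4 were lost without 1 or more arrays, as were all but 171 of the 822 calls. Of 14 Kupffer cell and macrophage markers 2 were called lower and 0 higher: C1qa differed by -1.81 ± 0.50, lost without KO 1, KO 3, WT 1, WT 2 or WT 3 (-2.57 to -1.42), and C1qb by -0.56 ± 0.14, lost without KO 2, KO 3, WT 1 or WT 3 (-0.67 to -0.48). The summed signal of the list was 13291 to 18206 in KO and 17116 to 18720 in WT, which overlap. Clec4f, the most specific of them, missed the call after quantile normalization (-0.74 ± 0.20, adjusted p 0.0435, and -0.73 ± 0.21, adjusted p 0.0603). Among 14 sinusoidal endothelial markers Clec4g was called higher (0.61 ± 0.15), lost without any 1 array (0.55 to 0.66), with sums of 11839.5 to 14191 in KO and 10770.1 to 12159 in WT. Among 9 lymphocyte markers Gzma, a granzyme, was called higher (1.20 ± 0.26), lost without KO 1, KO 2, KO 3, WT 1 or WT 2 (0.95 to 1.35), with sums of 6469.9 to 7884 in KO and 6868 to 7169 in WT. Stellate cell markers (0 of 14 called, 1 at an unadjusted p under 0.05) summed to 17273 to 18868 in KO and 15464 to 16055 in WT, cholangiocyte and progenitor markers (0 of 6 called, 1 unadjusted) to 5281.5 to 6903 in KO and 8183 to 10652 in WT. The sums of neutrophil markers (0 of 7 called, 1 unadjusted) and erythroid markers (0 of 3 called, 1 unadjusted) overlapped between the groups. Hepatocyte markers summed to 239797 to 299374 in KO and 408044.5 to 463892 in WT on the deposited scaling. Of its 8 measured genes 5 were called lower on that scaling and 0 after quantile normalization, where 1 was called higher, and the list median was -0.54 and 0.05. The part of cell composition in the differences above was not tested.

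The same contrast at day 0 and day 1 takes its differences from arrays that do not enter the day 2 differences. The estimate of spread is shared, because all groups were fitted together, so the p-values of day 0 and day 2 are not independent. A fit of only the 6 day 2 arrays called 986 genes at day 2, of which 741 were among the calls described above. At day 0, before TCPOBOP, 22 genes were called between KO and WT on both scalings (0.156%), with 2 arrays a group. Of the genes called at day 2, 130 of the 347 higher and 155 of the 475 lower had the same sign at day 0 on both scalings. From day 0 to day 2, 328 of the higher genes fell and 406 of the lower genes rose in WT on both scalings. The median changes on the deposited scaling were -0.627 in WT and 0.331 in KO for higher genes. For lower genes they were 0.635 in WT and -0.329 in KO. The day 2 arrays that chose the genes enter these changes, so the counts are favoured by the choice. Slco1a1 and Tsc22d3, a glucocorticoid-induced gene, were called higher and Tns2, a focal adhesion protein, lower at both days. Slco1a1 differed by 1.42 at day 0 and 1.22 at day 2. Yap1 differed by -1.02 at day 0, where its adjusted p was 0.0914. The 23 called G2/M genes had a median difference of -0.167 at day 0, with 12 of the 23 below 0, and -1.34 at day 2. All 63 measured genes of the list had medians of -0.04 at day 0, -0.74 at day 1 and -0.69 at day 2. In the day 1 pools the median of the 23 was -1.15, and 22 of the 23 were below 0, but with 1 pooled array a group day 1 has no replicate check. The called genes as a whole did not share this: 166 of the 347 higher and 241 of the 475 lower had the day 2 sign in the pools on both scalings. Their median day 1 differences were -0.01 and -0.006 on the deposited scaling. The share of all genes with such signs at day 0 or day 1 was not counted. A test of the change in difference from day 0 to day 2 called 238 genes on both scalings (1.69%).

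**Figure D5:**
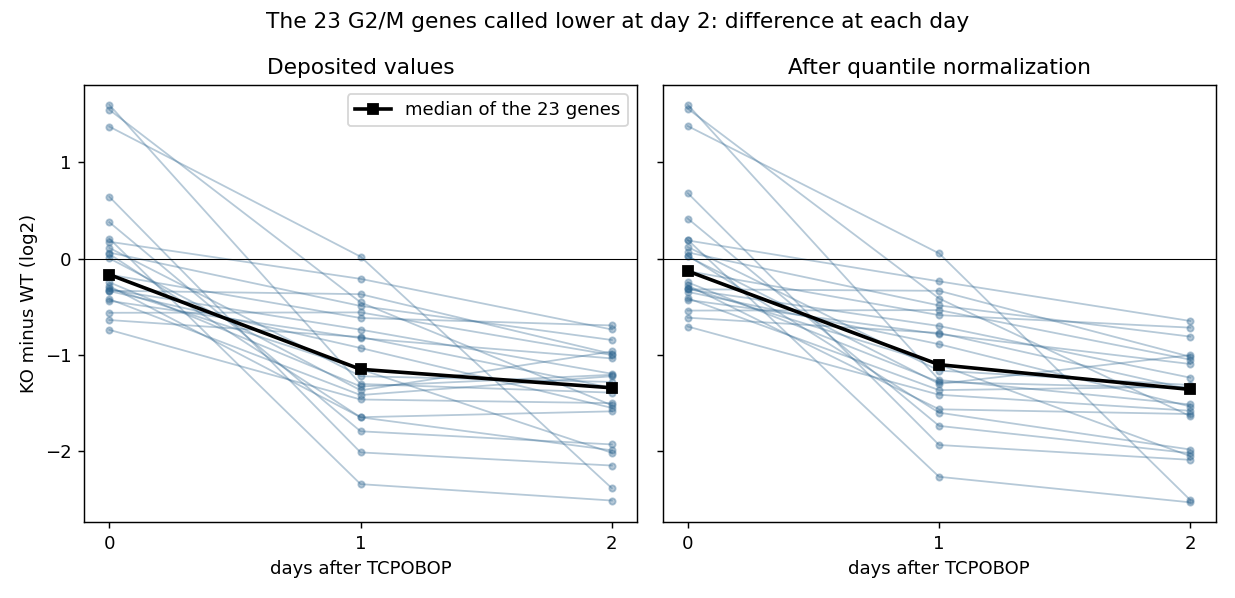
KO minus WT difference (log2, y axis) of the 23 G2/M genes called lower at day 2, against the day after TCPOBOP (x axis, days 0, 1 and 2), on the deposited scaling (left) and after quantile normalization (right). Thin lines are genes and the black line their median, which is -0.167, -1.15 and -1.34 on the left. Day 0 rests on 2 arrays a group, day 1 on 1 pool a group and day 2, which chose the genes, on 3 arrays a group.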

How the data were processed

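RNA of mouse liver was measured on 12 Affymetrix arrays, of which 3 KO and 3 WT arrays at day 2 form the comparison. The deposited values are probe set intensities made with MAS5, per the submitters' processing notes. Their version is not given in the sources used here. Every array has a trimmed mean of 500 (between the 2nd and 98th percentile), so the authors had scaled the intensities. Array number and signal range limit precision.

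Of 45101 probe sets, 34945 name 1 gene in the platform annotation, 932 several, 9160 none and 64 are controls. Symbols of 34741 were updated through RefSeq gene IDs. Probe sets above the median of their own array on at least 2 of 12 arrays were kept, and a gene was read from its kept probe set of highest mean, giving 14102 of 18193 genes. The deposited intensities plus 16 were taken to log2, as they were and after quantile normalization.

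Group means of 6 groups (genotype by day) were fitted with limma 3.58.1 in R 4.3.3 (two-sided, with 6 residual degrees of freedom and the robust and trend options of eBayes), with Benjamini-Hochberg adjustment over 14102 genes. The procedure was tested on simulated data with normal noise and no difference in signal range between the groups. It recovered 49 of 100 genes changed 2-fold and 86 of 100 changed 4-fold, and 4 of its 139 calls were false. A gene with no call may therefore still differ. Plots were drawn with matplotlib 3.10.9 and tables handled with numpy 2.4.6 and pandas 2.3.3 under Python 3.11.15. Replicate numbers were not used to pair the samples, as the labels state no pairing. Deviations of same-numbered KO and WT arrays from their group means correlated with r of 0.0345, 0.0265 and 0.00412. For arrays of different numbers r was -0.0576 to 0.031. With 3 arrays a group these values cannot exclude a pairing.

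The genes and 40 gene lists were chosen with earlier results of these data known. Genes were named from a panel, the 20 largest non-overlapping differences in each direction, up to 6 called members of each list, the 10 brightest called genes and up to 5 genes called in opposite directions by the scalings. Further genes, mostly calls that held in every fit, and the families counted by symbol were chosen after their values were seen. Uncalled list members are given by their values. Alternatives covered scaling, pseudocount, filter, probe set choice, eBayes options, array weights, replicate block, threshold and leaving out single arrays. Promoter windows are from RefSeq (GRCm38.p6).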

Additional observations from a re-analysis of the deposited data

Results flagged for a closer look

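For 46 of the 159 genes named in the text, the KO minus WT difference at day 2 was not the same as at day 0. The test is of the change itself (day 2 difference less day 0 difference, limma, adjusted p under 0.05 on both scalings), and over all genes it called 238 of 14102 (1.69%). The named genes were mostly chosen for their day 2 difference, and day 0 has 2 arrays a group, so the values describe these genes. Changes below are on the log2 scale of the deposited signals, and a negative change means a lower KO minus WT difference at day 2 than at day 0. They were negative for 31 genes and positive for 15.

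Among cell cycle and chromatin genes, the difference changed for Ccnf by -3.75, Gins1 by -3.36, Cdc20 by -2.79, H1f2 by -2.08 and Ccnb2 by -2.04. Smaller changes were those of Pcna by -1.47, Smc4 by -1.39, Mcm7 by -1.20 and H2ax by -0.91. The antiproliferative gene Btg1 changed by -1.33. Cytoskeletal and cortex genes changed likewise, Tubb6 by -4.45, Myh9 by -1.87, S100a10 by -1.87, Actg1 by -1.70, Pfn1 by -1.68 and Tubb4b by -1.58. Genes of protein synthesis, turnover and respiration that changed were Eif2b1 by -2.34, Eif3c by -1.86, Psmb7 by -1.63, Rpl19 by -1.30, Rps19 by -1.24 and Atp5e by -1.09. Surface and immune genes that changed were Tnfrsf12a by -3.76, H2-Q5 by -3.40, Lsr by -1.97, Cd9 by -1.63 and C1qb by -1.05. The remaining negative changes were Denn2b by -4.45, Nfic by -2.51, Hsd17b13 by -1.25 and Fth1 by -1.18.

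Positive changes included the stress genes, Hspa1b by 2.52, Herpud1 by 1.09 and Dnajb9 by 0.99. Metabolic and secreted liver genes changed as Rdh9 by 2.17, Pnpla3 by 1.53, Mbl2 by 1.43, Timp3 by 1.06, Cyp2b9 by 1.01 and Ugt2a3 by 0.81. The others were Dnah5 by 2.83, Sbk1 by 1.86, Cdkl4 by 1.71, Zdhhc24 by 1.63, Marcksl1 by 1.25 and Hoxb2 by 1.01. The adjusted p of the negative changes lay between 0.0058 and 0.0334 and that of the positive ones between 0.0068 and 0.0462 on the deposited scaling. In 41 of the 46 genes the day 0 difference on the deposited scaling had the opposite sign to the day 2 difference. Opposite signs enlarge the change that picked these genes, so this count is favoured by the rule and is no separate result. The signal range at day 0 also differed, in the other direction than at day 2. The highest signal was 102372 and 88576 in KO and 73118 and 71165 in WT, and its part was not tested.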

How the results depend on the processing

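The day 2 comparison gave 822 calls (347 higher, 475 lower), 1300 on the deposited scaling, 1040 after quantile normalization, 23 in G2/M, 11 in replication and 14 in cytoskeleton genes, and day 0 gave 22. Without eBayes trend and robust options these were 392 (144 higher, 248 lower), 748, 446 and 7 cytoskeleton genes, with 0 at day 0. At an adjusted p under 0.01 they were 112 (17 higher, 95 lower), 272, 133, 11, 5 and 6, with 0 at day 0, and under 0.1 they were 1605 (753 higher, 852 lower), 2448 and 1959, with 47 at day 0. Centring arrays on their median left 209 higher, array weights gave 540 higher and 4 at day 0, and no filter gave 9 at day 0. Brighter genes only, an alternative chosen after seeing the data, gave 221 higher, 4 G2/M and 5 replication genes, with only 4116 genes tested. With the replicate block, although the labels state no pairing by number, calls were 601 (227 higher, 374 lower), with 8 at day 0.

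Leaving out each day 2 array in turn gave 273 to 444 calls (69 to 203 higher, 182 to 312 lower), 408 to 979 on the deposited scaling, 343 to 579 after quantile normalization, 14 to 18 in G2/M, 5 to 8 in replication, 7 to 11 in cytoskeleton genes and 8 to 14 at day 0. The fewest calls came without KO 2 (273), WT 3 (296) or KO 3 (328). Yap1 stayed lower, by -1.09 to -0.81. Averaging a gene's probe sets turned the sign on at least 1 scaling (values on the deposited scaling and after quantile normalization) of Foxo1 (0.018 and -0.071), Psmb4 (-0.197 and 0.0099), Anapc15 (0.017 and -0.108), Nkx2-6 (0.064 and -0.0053) and Ubxn11 (-0.052 and -0.144), and of Tubb4b (0.43 and 0.42). A filter at 6 of 12 arrays turned Ncapd2 (0.27 and 0.099). The cause was not tested. Dim genes are limited by signal over background, since values near the floor of the arrays have no reliable fold.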

Other observations

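The brightest genes called lower in KO on both scalings were Selenop, the secreted selenium carrier, and Fth1, the heavy chain of the iron store ferritin. Selenop read 38000.2, 38826 and 47403 units in KO livers, against 75313, 75626 and 85231 in WT livers. Fth1 read 22749.9, 25046.5 and 28355 units in KO livers, against 44213, 42435 and 52544 in WT livers. KO arrays were below WT arrays for both. The differences were -0.93 ± 0.11 for Selenop and -0.87 ± 0.13 for Fth1 on the deposited scaling, and -0.26 ± 0.06 and -0.40 ± 0.07 after quantile normalization. The call of Selenop was lost without KO 1, KO 2, KO 3, WT 1 or WT 3 (-1.03 to -0.87), and that of Fth1 was kept without any 1 array. Mup3, of the major urinary protein family, was among the brightest genes called higher, with 19605, 22539.6 and 18617 units in KO livers, against 8693, 8782 and 8735 in WT livers. Its difference was 1.21 ± 0.29, a call lost without any 1 array (1.13 to 1.27), and its probes may read several family members.

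Other genes called higher in KO were chosen after their values were seen. Cxcl13, a chemokine for B cells, read 2144, 2723 and 2161 units in KO livers, against 1122, 1252 and 890.4 in WT livers. Timp3, an inhibitor of matrix proteases, read 1165, 1292 and 1104 units in KO livers, against 635, 595 and 549.6 in WT livers. All KO arrays exceeded all WT arrays, 2.14-fold for Cxcl13 (1.10 ± 0.16, adjusted p 0.00406) and 1.97-fold for Timp3 (0.98 ± 0.14, adjusted p 0.00324). Marcksl1, an actin-binding substrate of protein kinase C, was 1.86-fold higher (0.90 ± 0.15, adjusted p 0.00597). These 3 calls were kept without any 1 array but were lost when the probe sets of a gene were averaged. Of 41 measured olfactory and vomeronasal receptor genes, a family counted by symbol, 2 were called higher (4.9%, against 2.46% of all genes) and 0 lower by limma, with 8 higher and 0 lower at an unadjusted p under 0.05. The family median was 0.44 on the deposited scaling and 0.27 after quantile normalization, against 0.090 and 0.048 for all genes.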
